A study of Mus musculus with 12 samples.

Results

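Numb and Numbl are a pair of related genes that act on Notch signalling, and they made up 2 of the 118 genes on a Notch-pathway oligonucleotide array hybridised with RNA of mouse embryonic kidney. They were chosen by symbol, as the spots named Numb (NM_010949) and Numbl (NM_010950), with 1 spot each per array. Embryo kidney was sampled on gestation days 12, 13, 14, 16 and 18 (E12 to E18). The earliest pair of stages, E12 and E13, had 3 arrays each and the other stages 2 each, 12 arrays in all. No genotype, strain or treatment was given in the sources used here, and the arrays of a stage were technical replicates per the labels. The p-values below therefore measure the spread between arrays and not between animals. Those of the trend are an exception, as they measure the scatter of the stage means about a straight line. Whether a stage was 1 embryo or a pool is not given in the sources used here.

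Numb, first described in the fly, is a cytoplasmic adaptor that is handed to 1 daughter of an asymmetric division, binds the endocytic machinery and opposes Notch activity in the cell that inherits it. In mammals the gene has a close relative, Numbl (Numb-like), whose product is spread through the cytoplasm and can stand in for Numb in neural progenitors. In the kidney, Notch signalling is best known for patterning the proximal part of the nephron, and the stages sampled here run from early branching of the ureteric bud to active nephron formation.

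Both members were above background at all stages. The threshold was the mean plus 2 SD of the array's 6 negative-control spots, and Numb and Numbl passed it on 12 of 12 arrays. Numb was 2.12 to 8.59 times, and Numbl 3.39 to 22.6 times, the mean negative control of its array. Across the series the median gene signal was 4319 to 9617 per array, 2.69 to 7.93 times the mean negative control, and 106 of the 118 genes cleared that threshold on all arrays of some stage and were tested. Of the nephron progenitor, podocyte, stroma and endothelium markers listed for a check of the tissue, 0 were on the array. Of the 7 markers of the ureteric bud and collecting duct the array held 1, Wnt11, which was above background on 12 of 12 arrays. In whole kidney, a lower level of a transcript and fewer cells that hold it cannot be told apart.

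The deposited signals of Numb, in arbitrary intensity units, were 5994, 3345 and 3419 on the 3 E12 arrays. They were 11335, 4788 and 5011 at E13, 6447 and 6907 at E14, 5279 and 7798 at E16, and 9973 and 6613 at E18. Both high signals, 11335 and 9973, were on arrays whose negative controls averaged 2985 and 3495, the brightest of the series. Numbl had 11650, 9120 and 12595 at E12, 15899, 12748 and 17453 at E13, 10643 and 16086 at E14, 8169 and 12037 at E16, and 11862 and 10735 at E18. Its unprocessed signals overlapped between the early and the late stages. All later values are on the log2 scale after background correction and quantile normalization, which gives every array the same distribution of gene signals, so that a gene of equal rank on several arrays receives the same value on each. The level of 1 spot cannot be set against that of the other, because the probes differ, so only changes over stages are compared between the genes.

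For Numb, the normalized log2 signal was lowest at E12 and higher at each later stage. The 3 E12 arrays read 12.08, 11.69 and 12.02, with a mean of 11.93 ± 0.21 (SD, n = 3). The 3 E13 arrays read 12.90, 12.54 and 12.39, with a mean of 12.61 ± 0.26 (SD, n = 3), so every E13 array lay above every E12 array, as was the case for 2.83% of the genes tested. The later arrays stayed within the range that E12 and E13 spanned. Numb read 12.54 and 12.39 at E14 (12.47 ± 0.10; SD, n = 2), 12.02 and 12.65 at E16 (12.33 ± 0.45; SD, n = 2), and 12.61 and 12.20 at E18 (12.40 ± 0.29; SD, n = 2). In descending order the stage means were E13, E14, E18, E16 and E12. Each neighbouring pair in that order had overlapping arrays, with gaps of 0.15, 0.06, 0.07 and 0.40. The lowest E16 array, at 12.02, tied with an E12 array.

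**Figure D1:**
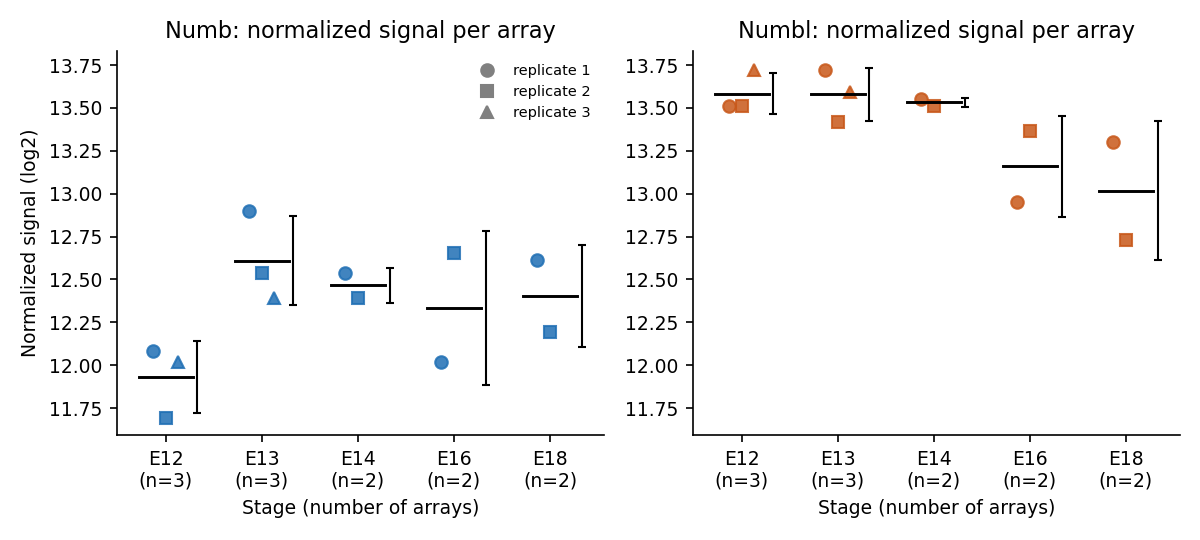
Normalized signal (log2) of Numb (left) and Numbl (right) on each of the 12 arrays, by stage. Points are arrays with the shape giving the replicate number, horizontal bars are stage means and error bars the SD (n = 3 or 2); Numb is lowest at E12 (11.93) and Numbl is lower at E16 (13.16) and E18 (13.02) than at the other stages.

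Numbl showed another course after quantile normalization, level from E12 to E14 and lower at E16 and E18. The E12 arrays read 13.51, 13.51 and 13.72 (13.58 ± 0.12; SD, n = 3), the E13 arrays 13.72, 13.42 and 13.60 (13.58 ± 0.15; SD, n = 3) and the E14 arrays 13.55 and 13.51 (13.53 ± 0.03; SD, n = 2). The equal readings at E12 are equal ranks. The E16 arrays read 12.95 and 13.37 (13.16 ± 0.29; SD, n = 2) and the E18 arrays 13.30 and 12.73 (13.02 ± 0.40; SD, n = 2). All 4 arrays of E16 and E18 lay below all 6 of E12 and E13, as for 5.66% of the genes tested (6 of 106). In descending order the stage means were E12, E13, E14, E16 and E18, with gaps between neighbours of 0.00, 0.05, 0.37 and 0.14. E14 and E16 were the neighbours whose arrays did not overlap, with both E16 arrays below both of E14, as for 17.9% of genes. The level early course depended on quantile normalization. From E12 to E13 Numbl differed by 0.23 scaled to array medians, 0.30 scaled to housekeeping genes, 0.46 without normalization and 0.24 as deposited ratios. From E13 to E14 it differed by -0.35, -0.18, -0.22 and -0.14 in the same order.

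Differences were tested with limma in 1 fit over all 12 arrays and 106 genes, with Benjamini-Hochberg adjusted p-values. Over the 5 stages, neither member passed the F test (adjusted p = 0.581 for Numb and 0.453 for Numbl), in a comparison where 1 gene, Krt1, or 0.943% of those tested, did. With the replicate number as a block that count was 0.

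The first step, from E12 to E13, held the most visible change of Numb. The gene differed by 0.68 log2 units (SE 0.22, 95% interval 0.19 to 1.17), a 1.60-fold higher level at E13. Among the 106 genes it had the second place by p, but with a limma adjusted p = 0.671 (unadjusted p = 0.0127) it did not pass. In that step 0 genes, 0% of those tested, passed and 5, 4.72%, had an unadjusted p under 0.05. Numbl differed by 0.00 (SE 0.18, 95% interval -0.41 to 0.40) over the same step. The Numb arrays of E12 and E13 overlapped when values were scaled to housekeeping genes, left without normalization, or taken as the authors' deposited ratios. The difference lay between 0.47 and 0.79 over 23 alternative settings.

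Between E13 and E14 Numb differed by -0.15 (SE 0.24) and Numbl by -0.05 (SE 0.20). From E14 to E16 the differences were -0.13 (SE 0.27) for Numb and -0.37 (SE 0.22, 95% interval -0.87 to 0.13) for Numbl, and from E16 to E18 they were 0.07 (SE 0.27) and -0.14 (SE 0.22). None of these steps passed for a member, with limma adjusted p-values of 0.848 to 1. The shares of all genes that passed were 0% from E13 to E14, 0.943% from E14 to E16 and 0% from E16 to E18, and the single gene of the middle step, Krt1, was not called with the replicate number as a block. Unadjusted p-values under 0.05 were found for 5.66% of genes from E13 to E14, 7.55% from E14 to E16 and 3.77% from E16 to E18.

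From the first to the last stage the 2 genes differed in opposite directions, neither past the test. Numb was 1.39-fold higher at E18 (difference 0.47, SE 0.24, 95% interval -0.08 to 1.02, limma adjusted p = 0.408). Numbl was 1.48-fold lower (difference -0.57, SE 0.20, 95% interval -1.02 to -0.11, limma adjusted p = 0.155). Both E18 arrays of Numb lay above all its E12 arrays, as for 17.9% of genes, and both of Numbl lay below, as for 16% of genes. The arrays of Numb overlapped with array medians, housekeeping scaling and the authors' deposited ratios, and those of Numbl with no normalization and the deposited ratios. In that comparison 1.89% of genes, Jag1 (difference 0.85) and Krt1 (difference -0.69), passed, and 0 did with the replicate number as a block. The difference of Numbl was -0.28 without E18 replicate 2 and -0.85 without E18 replicate 1, and that of Numb 0.26 without E18 replicate 1, so the single late arrays move both values. Without the 3 arrays of lowest signal over background (E12 replicate 2, E16 replicate 1 and E18 replicate 1) the difference was 0.145 for Numb and -0.89 for Numbl.

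The late stages were also set against the early ones, as the mean of the E16 and E18 means minus the mean of the E12 and E13 means. Numbl was 1.41-fold lower late (difference -0.49, SE 0.14, 95% interval -0.81 to -0.17). Its limma adjusted p of 0.0703 (unadjusted p = 0.0073) missed the threshold of 0.05, and it was gene 11 of 106 by p. Its 6 early arrays ran from 13.42 to 13.72 around a median of 13.55, and its 4 late arrays from 12.73 to 13.37 around 13.13, with no overlap. The test was passed by 3.77% of genes (4 of 106). Over the 23 alternative settings the difference of Numbl ran from -0.76 to -0.35 with adjusted p-values of 0.0627 to 0.674, and the late and early arrays overlapped with housekeeping scaling, no normalization and the authors' deposited ratios. Numb differed by 0.10 (SE 0.17, 95% interval -0.29 to 0.49, limma adjusted p = 0.892), with early arrays from 11.69 to 12.90 and late arrays from 12.02 to 12.65. Its difference turned to -0.06 without E16 replicate 2 and to -0.01 without E18 replicate 1.

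A straight line through the 5 stage means gave Numbl a slope per day of -0.11 on the log2 scale (SE 0.02, limma adjusted p = 0.11, unadjusted p = 0.00517). That of Numb was 0.03 (SE 0.05, limma adjusted p = 0.821). Pparg (slope 0.18) and Il17b (slope -0.51), 1.89% of genes, passed the trend test, and 17% had an unadjusted p under 0.05. The slope of Numbl lay between -0.16 and -0.06 over 26 alternative settings, none of which brought it past the threshold (adjusted p of 0.0731 to 0.587). Without stage E12 the slope of Numb was -0.04.

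Within an array, the difference Numb minus Numbl is free of any factor that scales all signals. It is not free of background that adds to them. The difference was taken as a description with no test, since the pair was put together with earlier results of these data known. At E12 it was -1.43, -1.82 and -1.71 log2 units on the 3 arrays, with a mean of -1.65 ± 0.20 (SD, n = 3). At E13 it was -0.82, -0.88 and -1.20 (-0.97 ± 0.20; SD, n = 3), and at E14 -1.02 and -1.12 (-1.07 ± 0.07; SD, n = 2). At E16 it was -0.94 and -0.71 (-0.82 ± 0.16; SD, n = 2), and at E18 -0.69 and -0.54 (-0.61 ± 0.11; SD, n = 2). All 3 E12 arrays lay below the 9 arrays of the later stages, a separation of E12 that 2.01% of all 5565 pairs of tested genes had in 1 direction or the other.

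The change of this difference was 0.68 log2 units (SE 0.14) from E12 to E13, -0.10 (SE 0.16) from E13 to E14, 0.24 (SE 0.17) from E14 to E16 and 0.21 (SE 0.17) from E16 to E18. From E12 to E18 it came to 1.04 (SE 0.16), so that the ratio of Numb to Numbl was 2.05-fold higher at E18 than at E12. The share of the first step depended on quantile normalization: without it, under array medians, housekeeping scaling, no normalization or the authors' deposited ratios, the change was 0.23 to 0.30 from E12 to E13 and 0.23 to 0.26 from E13 to E14. The order of the stage means, from high to low, was E18, E16, E13, E14 and E12. Neighbours did not overlap between E18 and E16 or between E14 and E12, and they overlapped between E16 and E13 and between E13 and E14. Across all pairs of tested genes, the difference of a pair did not overlap in 7.22% between E12 and E13, in 36.6% between E14 and E16 and in 27.9% between E16 and E18. Late minus early, the difference changed by 0.59 (SE 0.11) with overlapping arrays, since the highest early array stood at -0.82 and the lowest late one at -0.94.

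Set against all pairs of tested genes, such a change was common. A difference of 2 genes that did not overlap between E18 and E12 was found in 33.4% of pairs, and a change at least as large as that of Numb minus Numbl in 13.8%. Late minus early, 25.6% of pairs changed at least as much. For single genes, E12 was separate from the 9 other arrays in 0.943% of those tested, and neither member was among them. In the deposited signals, the ratio of Numb to Numbl was 0.515, 0.367 and 0.271 at E12, 0.713, 0.376 and 0.287 at E13, 0.606 and 0.429 at E14, 0.646 and 0.648 at E16, and 0.841 and 0.616 at E18. These unprocessed ratios still kept E18 above E12 on all arrays, while those of E12 and E13 overlapped. The same-numbered arrays 1 had the highest ratio of their stage at E12, E13, E14 and E18. Their mean negative control was the highest of their stage at E13, E14, E16 and E18. Background that adds to both signals moves a ratio toward 1, and its part in these unprocessed ratios was not tested.

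**Figure D2:**
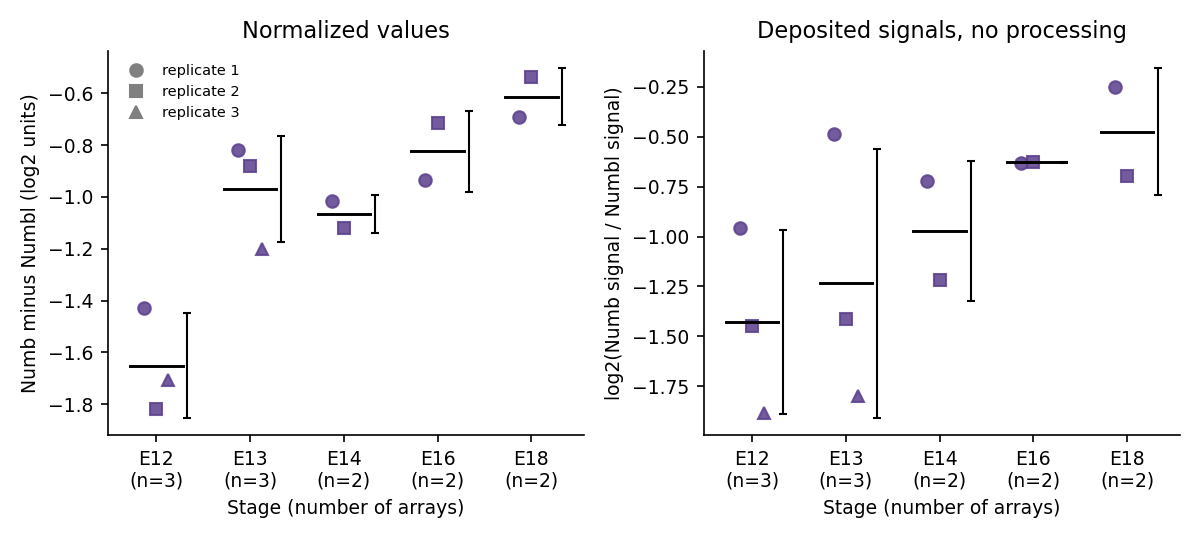
Numb minus Numbl on each array (log2 units) by stage, after normalization (left) and as the log2 ratio of the deposited signals (right); points are arrays, bars stage means and error bars the SD (n = 3 or 2). On the left the 3 E12 arrays (mean -1.65) lie below all others and the mean is -0.61 at E18; on the right E12 and E13 overlap and E18 stays above E12.

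Scaling moved the values of the single genes more than their difference from E12 to E18. The change of Numb minus Numbl from E12 to E18 lay between 0.93 and 1.15 over 20 alternative settings. Array medians, housekeeping scaling and no normalization differ by a constant per array and so give this difference 1 common value, 1.07. The E18 arrays stayed above the E12 arrays with that value, with no background correction, with negative controls subtracted and with the authors' deposited ratios. For the single genes the range was wide. Without normalization Numb differed by 0.98 and Numbl by -0.09 between E12 and E18, and with array medians by 0.29 and -0.78. Against the main setting, array medians shifted the difference of the median gene by -0.46 and unnormalized values by 0.22. Relative to the median of all genes, both scalings gave 0.74 for Numb and -0.34 for Numbl, against 0.45 and -0.59 with quantile normalization. The position of E12 below all other arrays was lost with array medians, housekeeping scaling, no normalization and the authors' deposited ratios.

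Other genes of the pathway were described by lists chosen with earlier results known, for the late minus early comparison, where the median of all genes was 0.04. Array medians shifted that median by -0.31, and the lists are best read relative to it. Among receptors, through which the signal enters, 0 of 4 tested passed (median 0.14), with Notch1 at 0.43 (SE 0.20), Notch2 at 0.17, Notch4 at 0.10 and Notch3 at 0.08. Numb is known to bind Notch1 and promote its removal. Among ligands 0 of 5 passed (median 0.34). Jag1, a ligand of the developing nephron, was at 0.50 (SE 0.12, limma adjusted p = 0.0549), Dll1 at 0.48, Jag2 at 0.34 and Dll4 at 0.27. Of the 10 modifiers and turnover genes, which include the fringe glycosyltransferases and ubiquitin ligases of the Deltex and Cbl kind, 0 passed (median -0.03). Cbl differed by -0.62 (SE 0.49), Mfng by 0.48 (SE 0.30), Rfng by 0.45 (SE 0.42) and Dtx2 by -0.14 (SE 0.14). In size, the difference of Numbl (-0.49) was exceeded by that of Cbl alone in this list, and its SE was smaller.

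The cleavage enzymes and the Hes and Hey targets also had no member past the test. For the 6 cleavage enzymes, which release the receptor's active part, the median was 0.04, with Adam10 at 0.50 (SE 0.40), Psen2 at 0.38 (SE 0.29), Aph1a at 0.08 and Ncstn at -0.05. For the 6 Hes and Hey genes, transcriptional repressors of which several are induced by Notch, the median was 0.00, with Heyl at 0.27 (SE 0.25), Hey2 at -0.22 (SE 0.28), Hes6 at -0.17 (SE 0.08) and Hes5 at 0.16 (SE 0.33). The Gli factors, through which Hedgehog signals act and of which Gli1 is known as a protein that Numb directs to the ligase Itch, had 0 of 3 past the test and a median of -0.43, with Gli3 at -0.51 (SE 0.13, limma adjusted p = 0.0549), Gli1 at -0.43 and Gli2 at -0.31. The 5 housekeeping genes had a median of 0.01 and 0 past the test, but the brightest ranks of a quantile-normalized array can hardly shift.

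**Figure D3:**
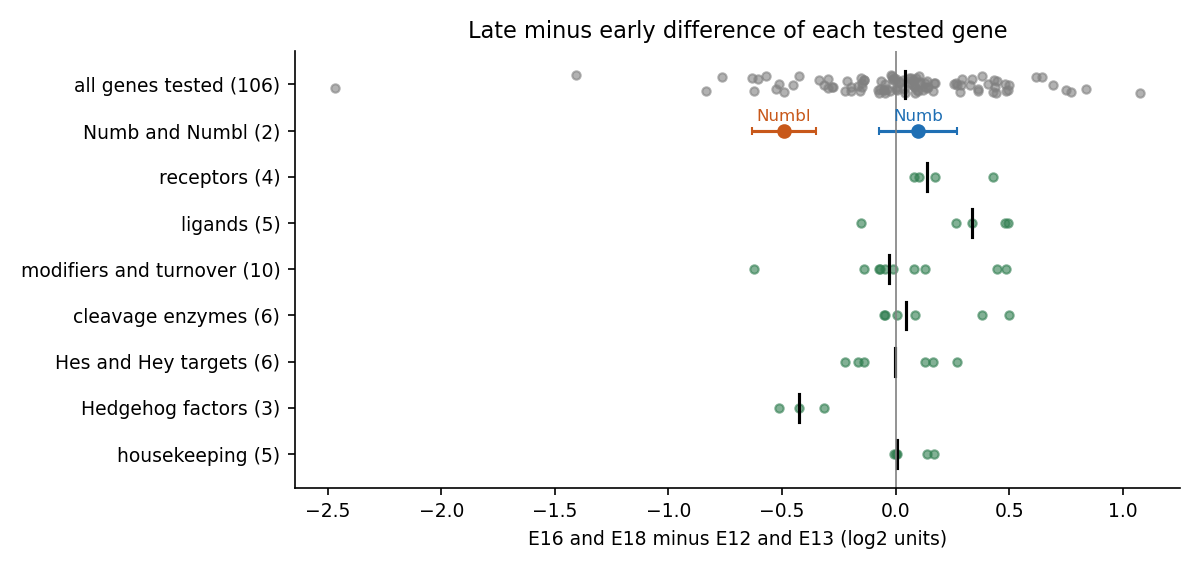
Difference of the late (E16, E18) minus the early (E12, E13) stages, in log2 units, of each of the 106 tested genes (grey) and by gene list (green, number of genes in brackets); black ticks are medians and the bars on Numb and Numbl the SE. Numbl (-0.49) lies among the lower genes, as gene 20 of 106 by size of the difference in either direction. Numb (0.10) lies near the median of all genes (0.04).

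The genes most like each member were found by Pearson's r over the normalized values of the 12 arrays, among the 105 other genes tested. They are given as a description with no p, since the arrays share their stage and their normalization and the genes are the extremes of many. For Numb they were Nrarp (r = 0.84), Crtc1 (r = 0.83) and Nfkb1 (r = 0.70), with Spearman's rho of 0.87, 0.88 and 0.74. Nrarp, a small ankyrin-repeat protein that is induced by Notch and limits it, had a mean of 12.20 ± 0.13 at E12 (SD, n = 3), 12.60 ± 0.31 at E13 (SD, n = 3), and 12.71, 12.62 and 12.74 at the following stages, so that it too had its lowest mean at E12. Crtc1 is a co-activator of CREB, and Nfkb1 encodes an NF-kB subunit. Their means were also lowest at E12 (13.14 for Crtc1 and 14.39 for Nfkb1). A choice of genes by likeness to Numb favours this trait, so it is not particular to Nrarp. Leaving out the 3 arrays of lowest signal over background gave r of 0.77 for Nrarp, 0.72 for Crtc1 and 0.58 for Nfkb1. The least like Numb were Gsk3b (r = -0.75), a kinase of the Wnt pathway, the ligand Dll3 (r = -0.68) and Gli1 (r = -0.58).

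For Numbl, Lor (r = 0.82), Krt1 (r = 0.74) and Il17b (r = 0.72) were the most alike, with Spearman's rho of 0.65, 0.69 and 0.74. Lor encodes loricrin of the cornified envelope, Krt1 a keratin of differentiating epidermis, and Il17b a cytokine. Leaving out the same 3 arrays gave r of 0.78, 0.65 and 0.68. The least like Numbl were Fos (r = -0.78), an immediate early transcription factor, Fzd6 (r = -0.71), a Wnt receptor, and Figf (r = -0.70), a growth factor of lymphatic vessels now named Vegfd. Between Numb and Numbl themselves r was 0.21 over the 12 arrays and -0.12 over the 5 stage means.

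**Figure D4:**
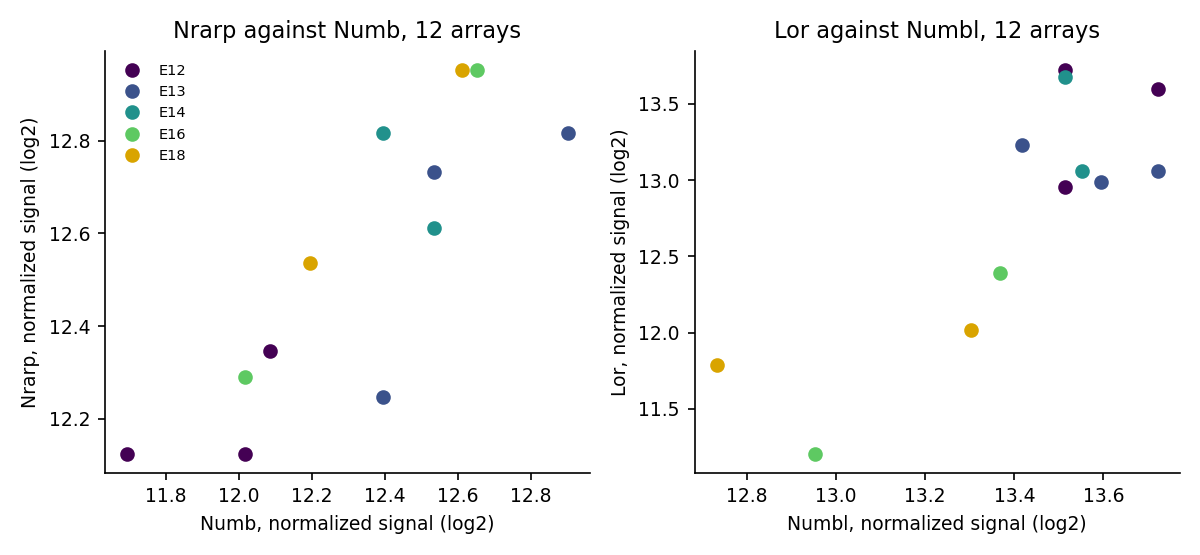
Normalized signal (log2) of Nrarp against Numb (left, r = 0.84) and of Lor against Numbl (right, r = 0.82), 1 point per array (12 in each panel), coloured by stage. The E12 arrays lie in the lower part of both axes on the left, with E16 replicate 1 among them, and the 4 late arrays at the low end of both axes on the right.

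The 4 genes past the test late minus early were all among those just named. Krt1 fell (difference -0.77, SE 0.10, limma adjusted p = 0.0036), Lor fell (-1.41, SE 0.26, limma adjusted p = 0.0188), and Fos rose (1.07, SE 0.23, limma adjusted p = 0.0382). Il17b fell (-2.47, SE 0.46, limma adjusted p = 0.0188), with 1 of its 4 late arrays above background, so its late values are partly bounds. None of these 4 calls held with housekeeping scaling, without the 3 arrays named above or with the authors' deposited ratios, where 0 genes passed. Krt1 and Lor belong to the list of epidermis markers, of which the array held 6 of 6. In that list 2 of 6 genes passed the test, both lower late. The summed normalized signal of the list was 35409 to 56849 on the 6 early arrays and 22619 to 32747 on the 4 late ones. The share of other gene sets with such a separation is not given here. Bright markers weigh most in this sum. At E12 the log2 means were 14.06 for Krt14, 13.80 for Krt10 and 13.42 for Lor, but 10.84 for Krt5 and 9.87 for Ivl. The lower sum is therefore not a decline of each marker. On every early and every late array 4 of 6 markers were above background. In neither group was a marker below background on all arrays. The lower late values of Numbl thus came with lower values of Krt1 and Lor, both named above for their likeness to Numbl. The other epidermis markers differed by -0.84 (Krt14), -0.16 (Krt10), -0.03 (Krt5) and 0.29 (Ivl) late minus early, none past the test. Krt14 had its lowest stage mean at E14 (11.78) and stood at 13.24 at E18. The part of these markers in the result of Numbl was not tested. Summed blood markers (6 of 9 on the array) were 25610 to 36319 early and 33246 to 34842 late. Of these 6 only 2, Lmo2 and Ptcra, were above background on every early and every late array, and Lmo2 was the brightest. Of the 6 markers of nervous tissue, where both members are also expressed, the array held 1, Mtap1b, at 2074 to 5007 early and 2132 to 4344 late.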

How the data were processed

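Per the labels' protocols, TRIzol was used to extract RNA of mouse embryo kidney and an amplification kit to make biotin-labelled target, which was read by chemiluminescence, per the series' design text. The authors deposited 1 whole-number intensity per spot for each array, for 128 spots of which 120 were gene spots of 118 genes. The image software is not given in the sources used here, and since negative controls lay well above 0 the values were taken as not background-subtracted. The authors also deposited a ratio per gene, which equals the signal above the array's lowest spot divided by that of Ppia. It was used on the log2 scale with 0.01 added.

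Background was corrected by the normexp model (offset 50), gene spots were put on the log2 scale and quantile-normalized, and duplicate spots were averaged. The stage means of the 12 arrays were fitted in limma 3.58.1 (R 4.3.3) (7 residual and 1.72 prior degrees of freedom) and adjusted p-values over the 106 tested genes at a threshold of 0.05. The fit was run on simulated data with planted late minus early changes larger than those of the members. That run does not bear on differences of the members' size. Probe sequences are not given here, so which of the 14 Numb and 6 Numbl transcripts listed by RefSeq (GRCm38.p6) a spot detects is not known. Coordinates are left out because the files name no build.

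The members, lists and tests were chosen with earlier results of these data known. Named genes were the members, the 3 most and 3 least like each member, up to 4 genes per list with the largest late minus early difference, and genes past the threshold in a comparison. Replicate numbers were checked for pairing by the correlation of deviations from stage means. Between E12 and E13 all 3 pairs were above 0.1 (0.122 to 0.222). Of the 18 other same-numbered pairs, 5 were above 0.1 (-0.378 to 0.367), the highest between E14 and E18. Between stages of 2 arrays each, both pairs have the same value by construction, and differently numbered arrays were not compared. These values therefore do not settle whether the numbers pair arrays at any stage, and the replicate block is given only as an alternative setting.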

Additional observations from a re-analysis of the deposited data

How the results depend on the processing

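The number of arrays limits precision, as does signal over background, down to 2.69 times for the median gene of an array and 2.12 times for Numb. The settings were listed with earlier results of these data known, and no cause of a change was tested. No alternative brought a member past the threshold in any comparison, the fit with the replicate number as a block included. Several small differences of members changed sign. Numbl from E12 to E13 was 0.227 with array medians, 0.303 with housekeeping scaling, 0.463 without normalization and 0.24 with deposited ratios. Numb from E13 to E14 was 0.083 with housekeeping scaling, 0.046 without normalization and 0.094 with deposited ratios, and Numbl from E16 to E18 was 0.062, 0.147 and 0.105 in the same order. Numb from E16 to E18 was -0.056 with array medians and -0.458 in the fit that omits the 3 arrays of lowest signal over background, where from E14 to E16 it was 0.188. Numb minus Numbl from E13 to E14 was 0.262 under the first 3 scalings and 0.235 with deposited ratios, and late minus early it was 0.816 under the first 3.

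Leaving out 1 array gave -0.076 to 0.076 for Numbl from E12 to E13 and -0.061 to 0.258 for Numb late minus early. From E13 to E14 it gave -0.254 to 0 for Numb and -0.127 to 0.025 for Numbl, from E14 to E16 -0.449 to 0.188 for Numb, and from E16 to E18 -0.25 to 0.387 for Numb and -0.428 to 0.143 for Numbl. For the slope of Numb, leaving out 1 array or stage gave -0.040 to 0.064.

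Counts of all genes past the threshold moved more, and need not hold the same genes. As reported they were 1 for the F test, 2 for E18 minus E12, 4 for late minus early, 0 for E13 minus E12, 1 for E16 minus E14 and 2 for the trend. Array medians gave 2, 1 and 2 for the first 3 of these and 0 for E16 minus E14. Housekeeping scaling and deposited ratios gave 0 for the first 3 and for E16 minus E14, and so did no normalization except for 1 late minus early. The fit that omits the 3 arrays of lowest signal over background gave 0 for all of these. A prior on the spread that depends on mean signal gave 6, 4, 8, 1, 0 and 12 in the order above. The replicate block gave 0 for the F test, E18 minus E12 and E16 minus E14, the fit to only the 2 stages compared gave 0 for the last of these and for E18 minus E12, no filter gave 0 for E18 minus E12, negative controls subtracted gave 2 for the F test, and no background correction gave 1 for E13 minus E12. Leaving out 1 array gave 0 to 3 for the F test, 0 to 6 for E18 minus E12, 1 to 6 for late minus early, 0 to 1 for E14 minus E13 and 0 to 2 for E16 minus E14, and for the trend, stages included, 0 to 3. Crossing the numbers of E16 and E18 in the replicate block, a choice made after seeing the data, gave 0 calls between these stages.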
